A study of Mus musculus with 47 samples.

Results

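The data described here are the aorta arrays of mice killed 28 d after the last exposure to GMA-SS, the fume of gas metal arc welding with a stainless steel electrode. They are 8 of the 47 arrays of the series, chosen by tissue and recovery time from the sample labels alone, 4 of GMA-SS mice and 4 of air mice. All were male C57BL/6J mice, 6 weeks of age when exposed. The GMA-SS mice inhaled fume at 40 mg/m3 for 3 hr/d on 10 d, and the air mice breathed filtered air on the same schedule. Each array holds RNA of the whole homogenized aorta of 1 mouse, not pooled and not sorted, so that fewer cells of a type and less RNA per cell cannot be told apart. The 8 arrays lay on 1 beadchip, with air in the first 4 positions and GMA-SS in the last 4, and position and exposure cannot be told apart. Aorta arrays at 4 hr after exposure (3 GMA-SS and 4 air) entered the same fit. The question was which genes of the vessel wall still differed from air 28 d after welding fume had been breathed.

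The aorta is built of an endothelial lining, a media of smooth muscle cells between elastic layers and an adventitia of fibroblasts, with brown and white fat around it, and it joins the heart at its root. Type I interferon acts through receptor-bound kinases and transcription factors, IRF9 among them, that bind interferon-stimulated response elements in front of interferon-stimulated genes. IRF7, itself a product of this loop, raises interferon output, and USP18 and ISG15 belong to the system that attaches and removes the ubiquitin-like ISG15.

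Signals are given on a log2 scale after background correction, addition of 16 and quantile normalization, so that a difference of 1 is a doubling for bright genes and less than the true fold for dim ones. Between 8678 and 9646 entries of an array were above background (detection p under 0.05), and 9850 genes were tested. The markers of the vessel wall were present in all 8 aortas: 12 to 14 of the 14 smooth muscle markers on the beadchip, 12 or 13 of 14 endothelial markers and all 12 fibroblast markers were above background. Markers of brown adipocytes (10 or 11 of 12) were as well.

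GMA-SS replicate 2 stood apart from the other 7 arrays. Its correlation with the other GMA-SS arrays over the 9850 genes tested was 0.965 to 0.969, against 0.991 to 0.994 among those 3 and 0.990 to 0.993 among the air arrays. Of 17932 entries, 1 per gene, 284 were at least 1 log2 unit higher on it than on any other of the 8 arrays and 2 were at least 1 unit lower. Genes of airway and lung epithelium led these entries. *Scgb1a1*, the secretoglobin of club cells, was at 14.40 on this array and between 6.33 and 8.73 on the other 7. The airway host defense genes *Bpifb1* (12.97 against at most 5.42) and *Reg3g* (12.14 against at most 4.61) and the surfactant protein gene *Sftpd* (12.15 against at most 4.66) were close to background elsewhere. *Sftpc*, which marks alveolar type II cells, was at 11.14 on it and *Dynlrb2*, a dynein gene of cilia, at 10.47, and neither was above background on any other array.

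The summed normalized signal of 19 airway secretory and gland cell markers was 7153, 108000, 8007 and 7725 in GMA-SS replicates 1 to 4, against 6634 to 8816 in air, with 6, 17, 5 and 6 markers above background in GMA-SS and 7 to 9 in air. Alveolar markers summed to 7952 in GMA-SS replicate 2 and to 231 to 257 in the other GMA-SS aortas, against 239 to 267 in air. Cartilage markers gave 2606 in replicate 2 and 362 to 424 in the other GMA-SS aortas, against 346 to 473 in air. *Muc5ac* and *Agr2* of goblet cells were not above background even on replicate 2. Without replicate 2, 4 of 10 airway secretory genes tested were lower in GMA-SS aortas at an unadjusted p under 0.05 (4.63% of all genes were). They were *Scgb3a2*, *Bpifb1*, *Bpifa1* and *Scgb1a1*, and the first 3 lay near background. Apart from replicate 2, *Scgb3a2* was above background on 1 array, *Bpifb1* on 4 and *Bpifa1* on 5. *Scgb1a1* was at 6.33, 6.78 and 7.45 in the other 3 GMA-SS aortas, against 8.73, 7.66, 7.74 and 8.05 in air (log2 fold change -1.19, limma unadjusted p = 0.0322), and it was above background on all 8 arrays. Macrophage markers were also highest on replicate 2 (25960, against 8776 to 11550 in the other GMA-SS aortas and 8906 to 15440 in air). What airway, lung and cartilage RNA in this sample contributed to other genes was not tested, and the comparisons are given with and without this array.

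**Figure D1:**
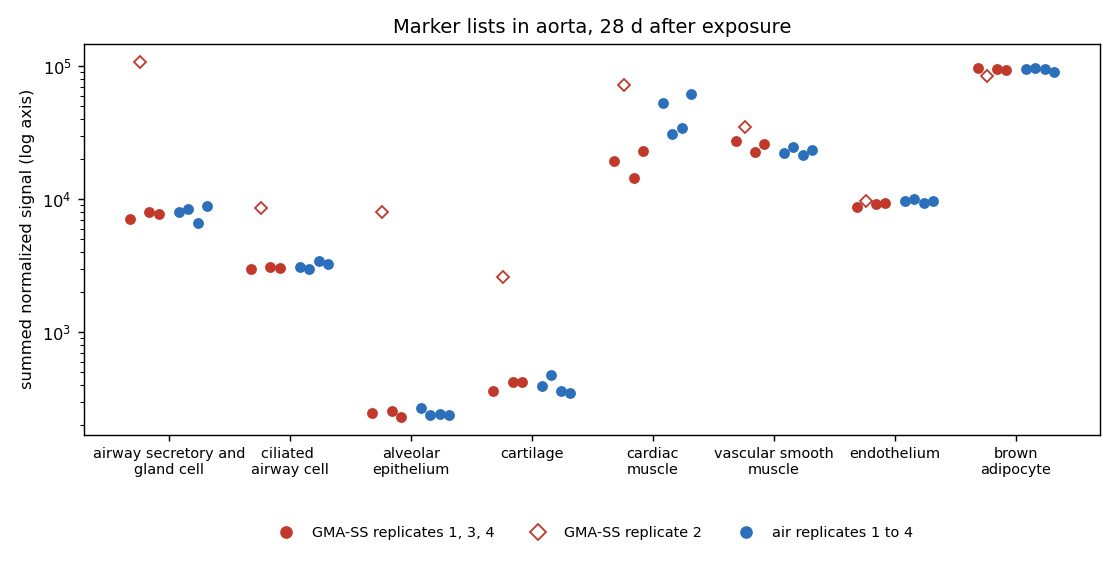
Summed normalized signal (log axis) of 8 marker lists in each aorta at 28 d, GMA-SS left (open diamond, replicate 2) and air right, 1 point per array. Airway, alveolar and cartilage markers stand out on GMA-SS replicate 2 alone, at 108000, 7952 and 2606, while cardiac muscle markers are low in the other 3 GMA-SS aortas.

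With all 4 GMA-SS arrays no gene passed an adjusted p under 0.05 (limma with Benjamini-Hochberg adjustment, lowest adjusted p 0.454), while 672 genes (6.82%) had an unadjusted p under 0.05. At the thresholds that the study used for aorta, an unadjusted p under 0.05 and a fold of at least 1.1, 262 genes (2.66% of those tested) were higher and 352 (3.57%) lower, together 6.23%. Without GMA-SS replicate 2, 415 (4.21%) were higher and 436 (4.43%) lower, together 8.64%, while 9.53% had an unadjusted p under 0.05 at any fold. Then 2 genes, or 0.0203% of those tested, passed the adjusted p. These were *Pln*, phospholamban, which restrains the calcium pump of heart muscle, and *BC034076*. Both fell. The median spread between replicates (SD) was 0.17 in GMA-SS aortas, or 0.10 without replicate 2, and 0.14 in air aortas. The median standard error of a fold change was 0.10 on the log2 scale. Differences of 0.2 are therefore near an unadjusted p of 0.05 for an average gene with 4 against 4 arrays. The adjusted p asks for more, and with all arrays a log2 fold change of -0.58 for *BC034076* did not pass it.

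Genes of heart muscle were lower in 3 of the 4 GMA-SS aortas. Of 20 cardiac muscle genes tested, 16 were, without replicate 2, lower at an unadjusted p under 0.05 (4.63% of all genes were) and 15 lay below every air array (3.50% of all genes), with a median log2 fold change of -1.14, against 0.01 over all genes. With replicate 2 the median was -0.67, 2 genes were lower at an unadjusted p under 0.05 (3.82% of all genes were) and 0 of the 20 lay below every air array. The summed signal of the list was 19430, 72790, 14500 and 23090 in GMA-SS replicates 1 to 4, against 53320, 30910, 34300 and 62000 in air. The array with airway genes therefore held more heart muscle signal than any air aorta, and the other 3 GMA-SS aortas less than any. In replicates 1, 3 and 4, 15, 16 and 16 of the 20 genes lay below all air arrays, where 16.2%, 18.1% and 15.8% of all genes did. In replicate 2, 17 lay above all air arrays, where 20.5% of all genes did. How much heart tissue was left on each aorta is not given in the sources used here, and its part in these differences was not tested.

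*Pln* was at 7.71, 9.52, 7.34 and 8.18 in GMA-SS aortas, against 9.25, 8.85, 9.27 and 9.37 in air. All but replicate 2 were below every air array, and without it *Pln* was 2.71-fold lower (log2 fold change -1.44, SE 0.21, limma adjusted p = 0.0362). *Nppa*, the atrial natriuretic peptide gene, had the largest difference in either direction among genes with an unadjusted p under 0.05 without replicate 2. Its signal was 9.45, 13.60, 9.43 and 10.00 in GMA-SS aortas, against 12.83, 11.15, 11.32 and 13.35 in air. Without replicate 2 it was 5.8-fold lower (log2 fold change -2.54, SE 0.42, adjusted p = 0.0709), and with it the log2 fold change was -1.54 (SE 0.74). The air arrays themselves spanned 2.2 log2 units, with replicates 1 and 4 above 2 and 3.

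Other genes of the contractile apparatus followed the same order of arrays. *Myl7*, the atrial light chain, was at 10.27, 12.43, 9.61 and 10.45 in GMA-SS aortas, against 11.83, 11.11, 11.34 and 11.95 in air, and *Myh6*, the alpha myosin heavy chain, at 9.07, 11.35, 8.76 and 9.20, against 10.80, 9.87, 10.04 and 11.003. Their log2 fold changes without replicate 2 were -1.45 and -1.41 (adjusted p = 0.079 for both). *Tnni3* (cardiac troponin I), *Actc1* (cardiac actin), *Csrp3* (muscle LIM protein), *Sln* (sarcolipin) and *Myl4* (an atrial light chain) were between -0.98 and -1.33 without replicate 2. The ventricular light chain *Myl2* was not above background on any of the 8 arrays. *Myl3*, a light chain that slow skeletal muscle shares, overlapped between the groups, with a log2 fold change of -0.26 (SE 0.24) without replicate 2. Genes outside the list, picked after their values were seen, had the same order. The myoglobin gene *Mb* was at 11.22, 12.85, 10.91 and 11.47 in GMA-SS aortas, against 12.60, 11.76, 12.23 and 12.60 in air. *Cox6a2*, the heart and skeletal muscle isoform of a cytochrome c oxidase subunit, was at 11.07, 12.87, 10.64 and 11.33, against 12.41, 11.54, 11.81 and 12.57.

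**Figure D2:**
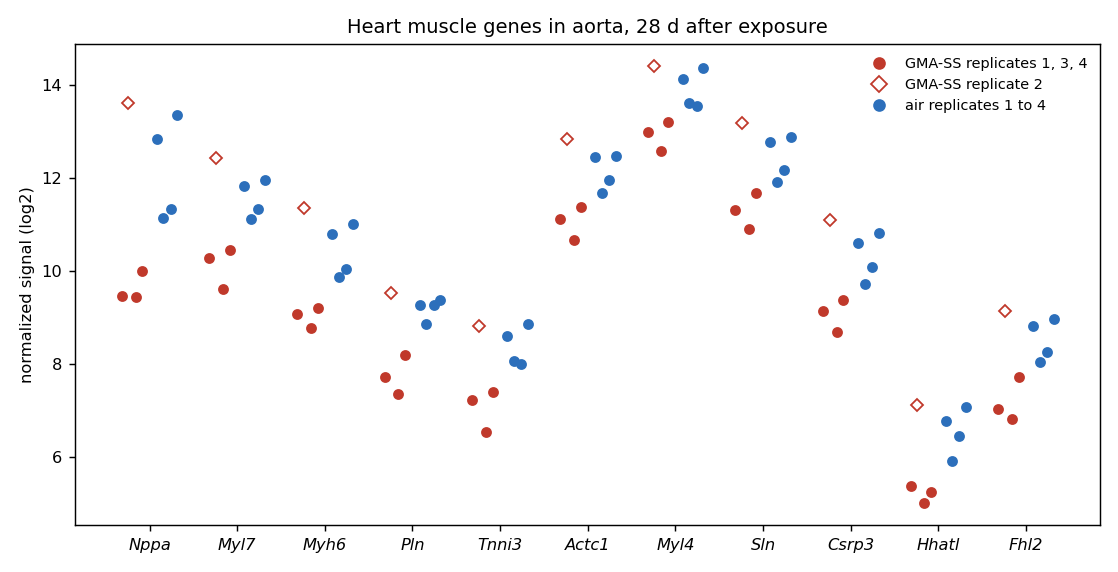
Normalized signal (log2) of 11 heart muscle genes in each aorta at 28 d, GMA-SS left (open diamond, replicate 2) and air right, 1 point per array. GMA-SS replicates 1, 3 and 4 lie below all air arrays for each gene drawn, and replicate 2 lies above or within the air range, as for *Pln* at 9.52.

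The promoters of *Myl7* and *Actc1* are shown because both genes were low in the same 3 aortas and carry a CArG box, the site bound by serum response factor in muscle promoters. Bases are the 250 before the RefSeq start of the gene, 5′ to 3′ on the strand of the gene, in build GRCm38.p6. Exact matches to the CArG box (CCWWWWWWGG, where W is A or T) are in capitals. *Myl7* lies on the minus strand at chr11:5898783-5899032 and *Actc1* on the minus strand at chr2:114052876-114053125.
Myl7: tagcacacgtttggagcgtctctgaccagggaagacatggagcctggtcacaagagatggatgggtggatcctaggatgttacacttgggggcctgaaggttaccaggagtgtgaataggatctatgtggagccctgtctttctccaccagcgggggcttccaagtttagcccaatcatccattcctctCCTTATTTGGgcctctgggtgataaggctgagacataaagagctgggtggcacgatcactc
Actc1: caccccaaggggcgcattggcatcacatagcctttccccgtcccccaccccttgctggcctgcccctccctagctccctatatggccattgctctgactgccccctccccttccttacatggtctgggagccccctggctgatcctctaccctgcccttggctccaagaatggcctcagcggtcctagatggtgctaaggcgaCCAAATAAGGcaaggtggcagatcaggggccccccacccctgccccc
The box lies 61 to 52 bases before the start in *Myl7* and 47 to 38 bases in *Actc1*. An exact match was found on either strand in 3 of 19 cardiac muscle genes with a promoter entry and in 0 of 9 smooth muscle genes with one. Of all 27025 genes with an entry 1.62% hold it (1.47% of 32851 promoters of this length). Boxes with a mismatch were not searched for, and 4 smooth muscle genes tested had no promoter entry.

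*BC034076*, the other gene past the adjusted p without replicate 2, was at 5.29, 5.79, 5.41 and 5.44 in GMA-SS aortas, against 6.12, 5.95, 6.08 and 6.10 in air. All 4 GMA-SS arrays lay below all air arrays (1.24% of all genes did), and the log2 fold change was -0.68 (SE 0.10, limma adjusted p = 0.0362) without replicate 2 and -0.58 (SE 0.11, adjusted p = 0.454) with it. The calls of *Pln* and *BC034076* were lost when the spread was estimated from the 28 d arrays alone (lowest adjusted p 0.199). When air replicate 2 was left out as well, 60 of the 9850 genes tested passed, 55 of them lower, with 14 of the 20 cardiac muscle genes among them. Air replicate 2 had the lowest heart muscle sum of the air aortas (30910), so that leaving it out raises the air mean of these genes. Leaving out any other array in its place gave 0 or 1 gene.

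**Figure D3:**
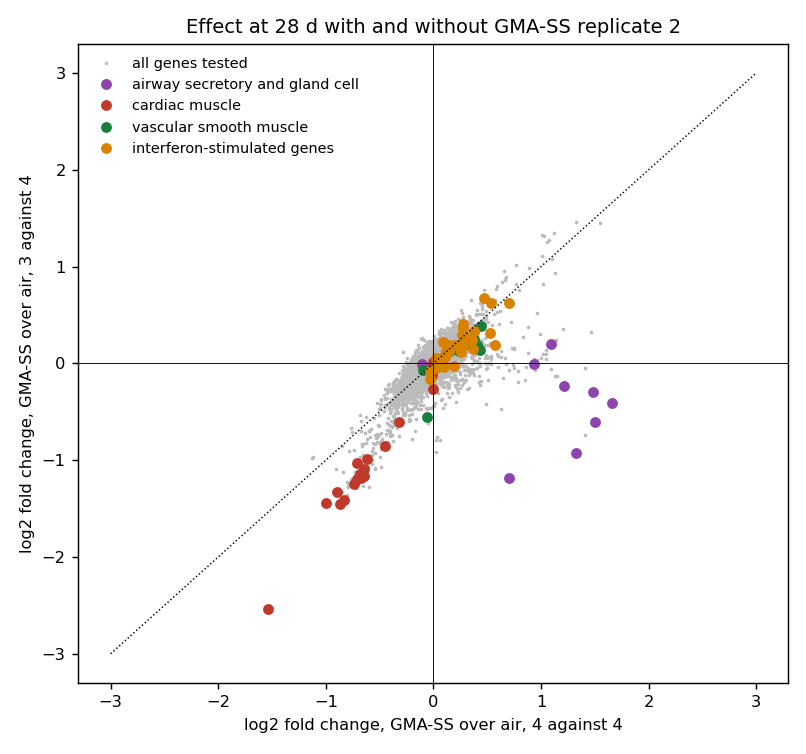
Log2 fold change at 28 d, GMA-SS over air, of each gene tested, with all 4 GMA-SS arrays (x axis) and without replicate 2 (y axis), 1 point per gene and 4 lists in color. The dotted line marks equal values. Of 10 airway genes, 8 lie right of the origin and below the dotted line, cardiac muscle genes lie below the line, down to -2.54 for *Nppa*, and interferon-stimulated genes lie close to the line.

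Genes of the type I interferon response were above air in 3 of the 4 GMA-SS aortas. Of 32 interferon-stimulated genes tested, 30 had a mean above air, where 43.7% of all genes did, and the median log2 fold change was 0.19, against -0.02 over all genes. Only 5 of the 32 were higher at an unadjusted p under 0.05 (3.01% of all genes were), namely *Lgals3bp*, *Eif2ak2*, *Rtp4*, *Tor3a* and *Parp14*, and none passed the adjusted p. Without replicate 2, 27 of 32 were above air, where 53.4% of all genes were, with a median of 0.17, and 4 were higher at an unadjusted p under 0.05 (4.90% of all genes were). In GMA-SS replicates 1, 2 and 3, 20, 19 and 20 of the 32 lay above all 4 air arrays, where 20.1%, 20.5% and 18.7% of all genes did. In GMA-SS replicate 4, 1 of the 32 did (19.9% of all genes), and 8 lay below all air arrays (15.8% of all genes). Without replicate 4 the median of the list was 0.27.

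*Usp18*, which removes ISG15 from proteins and damps interferon receptor signaling, was at 8.19, 8.34, 7.90 and 6.52 in GMA-SS aortas, against 7.13, 6.88, 6.42 and 6.46 in air. The first 3 lay above all air arrays and the fourth within their range. Its log2 fold change was 1.02, or 2.02-fold (SE 0.42, limma unadjusted p = 0.0301, adjusted p = 0.711), 0.82 without replicate 2 and 1.42 without replicate 4. *LOC100048346* gave nearly the same signals on every array (8.16, 8.31, 7.92 and 6.57 in GMA-SS aortas, against 7.08, 6.69, 6.34 and 6.33 in air). The probes of both may share a target, and they are counted here as 1 observation.

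*Irf7*, the transcription factor that the study followed, was dim in aorta, at 5.98, 5.85, 5.88 and 4.72 in GMA-SS aortas, against 5.30, 4.99, 4.85 and 4.81 in air. It was above background on 3 GMA-SS arrays and 1 air array. The log2 fold change was 0.62 (SE 0.27, limma unadjusted p = 0.0392), 0.54 without replicate 2 and 0.92 without replicate 4. *Irf9*, a DNA-binding factor of the interferon response, was at 7.95, 7.83, 8.08 and 6.72 in GMA-SS aortas, against 7.24, 6.97, 6.89 and 7.10 in air (log2 fold change 0.59, SE 0.26). Here too replicates 1 to 3 lay above all air arrays and replicate 4 below them. *Lgals3bp*, a secreted galectin-binding glycoprotein, was at 11.16, 11.03, 11.01 and 10.02 in GMA-SS aortas, against 10.53, 9.92, 9.91 and 10.05 in air (log2 fold change 0.70, SE 0.25, unadjusted p = 0.0133). *Ifngr1*, a chain of the interferon gamma receptor, was higher by 0.21 (SE 0.07, unadjusted p = 0.012) and did not drop in replicate 4, with 8.88, 8.92, 8.92 and 8.95 in GMA-SS aortas, against 8.92, 8.65, 8.56 and 8.70 in air. With *Usp18*, *Irf7* and *Irf9* it made up the 4 of 17 interferon signaling genes that were higher at an unadjusted p under 0.05 (3.01% of all genes were), and 1 of them, *Ifngr1*, kept this without replicate 2 (4.90% of all genes were higher). The median of these 17 genes was 0.03.

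Several interferon-stimulated genes were also measured by PCR in the study. On the arrays, *Isg15* was at 7.80, 7.65, 8.07 and 6.53 in GMA-SS aortas, against 7.47, 7.37, 6.70 and 7.01 in air, with a log2 fold change of 0.38 (SE 0.34, limma unadjusted p = 0.285). *Oasl2* (0.57, unadjusted p = 0.136) and *Ifitm3* (0.26, unadjusted p = 0.119) did not reach an unadjusted p under 0.05 either. For *Oasl2* the log2 fold change was 0.19 without replicate 2, the array on which the gene had its highest signal, 8.68. *Oas1a* was not among the genes tested.

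The interferon-inducible GTPases attack vacuoles that hold microbes and are induced by both interferon types. Of 8 genes tested, 0 had an unadjusted p under 0.05 (6.82% of all genes did). Their median was 0.17, which was -0.04 without GMA-SS replicate 3 and 0.37 without GMA-SS replicate 4. The lowest p were those of *Irgm2*, at 9.70, 9.56, 10.21 and 8.82 in GMA-SS aortas, against 9.03, 9.19, 9.15 and 9.12 in air, and of *Gbp3*, at 10.38, 9.68, 10.39 and 8.77, against 9.90, 9.39, 8.91 and 9.16. In GMA-SS replicate 3 all 8 lay above every air array (18.7% of all genes did), and in GMA-SS replicate 4, 7 of 8 lay below every air array (15.8% of all genes did).

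The promoters of *Isg15* and *Irgm2* are shown because both genes were highest in GMA-SS replicate 3 and lowest in GMA-SS replicate 4 among the 8 aortas. Bases are again the 250 before the RefSeq start, on the strand of the gene in GRCm38.p6, with matches to the core of the interferon-stimulated response element (GAAA, any 2 bases, GAAA) in capitals. *Isg15* lies on the minus strand at chr4:156200819-156201068 and *Irgm2* on the plus strand at chr11:58214727-58214976.
Isg15: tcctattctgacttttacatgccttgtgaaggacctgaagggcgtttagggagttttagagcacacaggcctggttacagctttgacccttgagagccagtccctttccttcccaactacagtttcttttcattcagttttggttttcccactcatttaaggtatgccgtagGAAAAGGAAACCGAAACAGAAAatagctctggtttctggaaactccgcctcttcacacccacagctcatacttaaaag
Irgm2: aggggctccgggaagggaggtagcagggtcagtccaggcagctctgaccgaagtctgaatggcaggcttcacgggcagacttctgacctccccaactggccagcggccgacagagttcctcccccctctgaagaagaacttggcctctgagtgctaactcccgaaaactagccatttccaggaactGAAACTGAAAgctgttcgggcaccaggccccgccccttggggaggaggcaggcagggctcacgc
In *Isg15* 3 overlapping matches lie 78 to 57 bases before the start, and in *Irgm2* 1 match lies 64 to 55 bases before it. On either strand the core was found in 7 of 8 GTPase genes, 7 of 25 interferon-stimulated genes and 2 of 15 interferon signaling genes with a promoter entry, while 3.46% of all genes with an entry (2.98% of promoters of this length) hold it.

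Whole blood cells of the same 8 mice showed which mice carried the higher interferon genes. The mean log2 signal of the 32 interferon-stimulated genes in aorta was 8.11, 8.14, 8.15 and 7.70 in GMA-SS mice 1 to 4, against 7.98, 7.82, 7.62 and 7.76 in air mice. In blood the same mean was 10.17, 9.99, 10.16 and 9.71 in GMA-SS mice, against 9.91, 9.75, 9.67 and 9.74 in air mice. In both tissues GMA-SS mice 1 to 3 were highest, GMA-SS mouse 4 lay among the air mice, and air mouse 1 was highest of the air mice. *Irf7* differed from this in blood, where it was at 11.08, 10.88, 10.56 and 10.16 in GMA-SS mice, against 9.94, 9.58, 9.19 and 9.73 in air mice, so that GMA-SS mouse 4 was also above all air mice. Signals of different tissues were normalized separately, and only the order of mice is compared. Blood left in the vessel was not measured. Erythroid markers summed to 28920, 27810, 29330 and 26850 in GMA-SS aortas, against 28540, 26900, 26600 and 25760 in air aortas, and their part in the interferon signals was not tested.

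**Figure D4:**
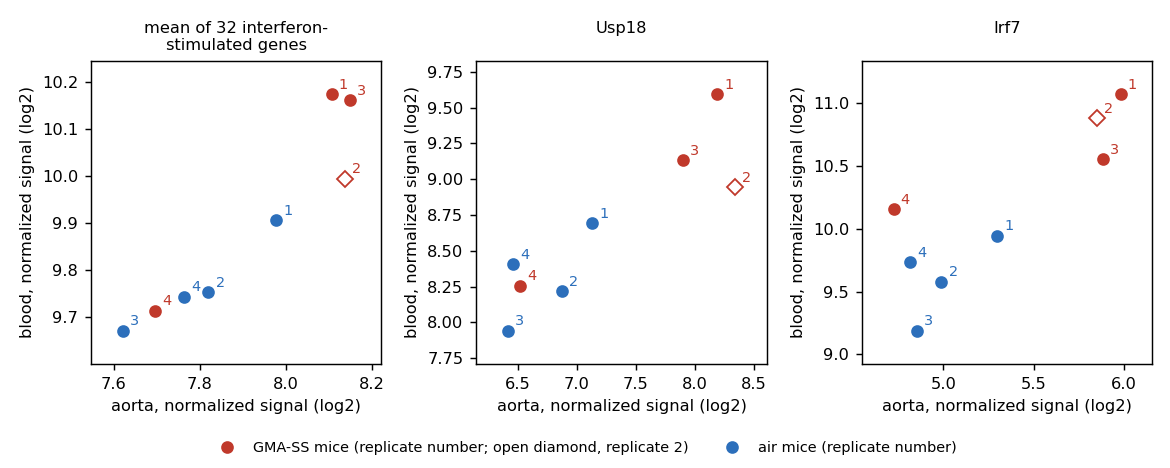
Normalized signal (log2) in aorta (x axis) and in blood (y axis) of the same 8 mice at 28 d, for the mean of 32 interferon-stimulated genes, *Usp18* and *Irf7*, 1 point per mouse with its replicate number (GMA-SS red, replicate 2 as an open diamond, air blue). GMA-SS mice 1 to 3 lie at the upper right in each panel, and GMA-SS mouse 4 lies at or below the aorta level of the air mice, with *Irf7* at 4.72.

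At 4 hr after exposure the same 32 genes had a median log2 fold change of 0.42 and the 8 GTPases one of 0.69, against 0.19 and 0.17 at 28 d, the last of which changed sign without GMA-SS replicate 3. The mean of the 32 genes was 7.96, 8.48 and 7.82 in the 3 GMA-SS aortas at 4 hr, against 7.61 to 7.73 in air. The difference between the effects at the 2 times was tested gene by gene and no interferon gene named so far had an unadjusted p under 0.05 for it. *Gbp3* (log2 fold change 0.46 at 28 d and 1.16 at 4 hr, difference -0.69, limma unadjusted p = 0.174) and *Isg15* (difference -0.69, unadjusted p = 0.186) came to a similar difference. *Stat2* and *Ifi27l2a* did have a lower effect at 28 d at an unadjusted p under 0.05. *Ifi27l2a*, an interferon-inducible membrane protein gene, had a log2 fold change of 0.05 (SE 0.10) at 28 d and 0.62 at 4 hr, a difference of -0.57 (limma unadjusted p = 0.00129).

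Smooth muscle genes were on the whole slightly higher in the GMA-SS aortas. Of 13 tested, 11 were above air and 7 higher at an unadjusted p under 0.05 (3.01% of all genes were), with a median log2 fold change of 0.29. Without GMA-SS replicate 2 the median was 0.13, with 3 genes higher, *Tagln*, *Myocd* and *Acta2* (4.90% of all genes were), and *Des* lower (4.63%). *Tagln*, the actin-bundling transgelin of smooth muscle, was at 9.01, 9.07, 8.56 and 8.92 in GMA-SS aortas, against 8.34, 8.67, 8.28 and 8.49 in air (log2 fold change 0.45, SE 0.12, limma unadjusted p = 0.00281, and 0.39 without replicate 2). *Myocd*, myocardin, the coactivator that switches on smooth muscle genes, was at 7.77, 8.17, 7.71 and 7.91, against 7.64, 7.54, 7.43 and 7.62, and its groups did not overlap (1.03% of all genes lay above air in this way). *Acta2*, smooth muscle actin, was higher by 0.16 (SE 0.06), and *Myh11*, smooth muscle myosin, by 0.38 (SE 0.14), or 0.25 without replicate 2. *Des*, desmin, which heart muscle also expresses, had a log2 fold change of -0.06 with replicate 2, where it was at 11.15, and of -0.56 (SE 0.18) without it.

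The arrays did not contribute alike. In GMA-SS replicates 1, 2 and 4, 11, 11 and 10 of the 13 genes lay above all air arrays (20.1%, 20.5% and 19.9% of all genes did). In replicate 3, 1 did (18.7% of all genes) and 4 lay below all air arrays (18.1% of all genes). The summed signal of the list was 27310, 34880, 22550 and 25860 in GMA-SS aortas, against 22170, 24710, 21310 and 23410 in air. At 4 hr the median of the list was -0.02. For *Tagln* the effect at 28 d exceeded that at 4 hr by 0.52 (limma unadjusted p = 0.0128), and for the other genes of the list named here the unadjusted p of the difference was above 0.05.

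**Figure D5:**
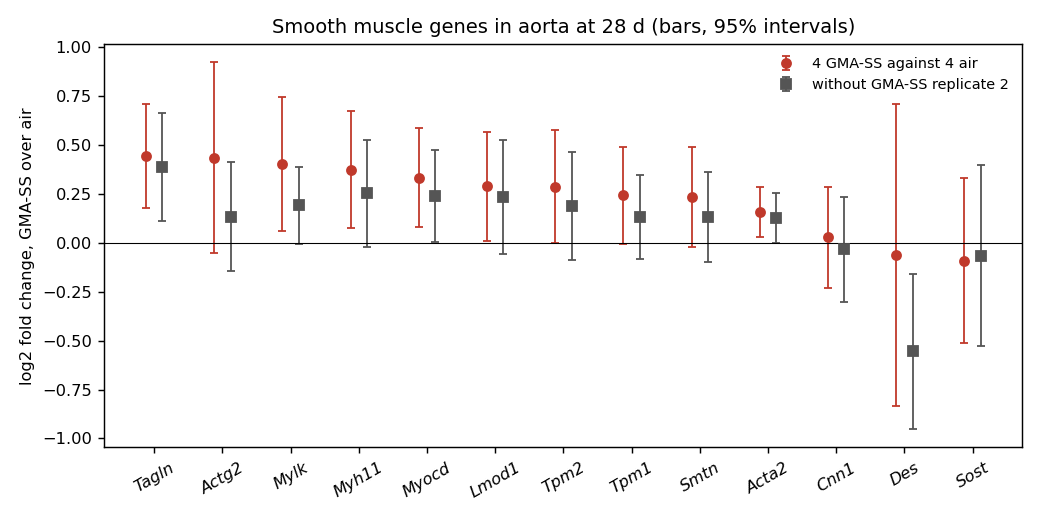
Log2 fold change, GMA-SS over air, of 13 smooth muscle genes in aorta at 28 d, with all 4 GMA-SS arrays (red circles) and without replicate 2 (grey squares); bars are 95% confidence intervals from limma. Most genes lie above 0 in both fits, *Tagln* at 0.45 and 0.39, and *Des* lies at -0.56 without replicate 2.

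Genes of vessel tone gave few differences. Of 23 genes of vasomotor control tested, *Kcnmb1* and *Ece1* were higher at an unadjusted p under 0.05 (3.01% of all genes were) and none lower (3.82%). Without replicate 2, *Kcnmb1* was higher (4.90% of all genes were) and *Ednra* lower (4.63%), and *Ece1* had an unadjusted p of 0.106 in limma. *Kcnmb1*, the smooth muscle subunit of the large-conductance calcium-activated potassium channel, was at 8.18, 8.38, 7.91 and 8.28 in GMA-SS aortas, against 7.56, 7.98, 7.50 and 7.79 in air (log2 fold change 0.48, SE 0.13, limma unadjusted p = 0.00242, and 0.41 without replicate 2). GMA-SS replicate 3 overlapped with air replicate 2. *Ece1*, which matures endothelin, was higher by 0.16 (SE 0.07). The endothelin receptor gene *Ednra* was at 8.38, 9.47, 8.25 and 8.54 in GMA-SS aortas, against 8.98, 8.63, 8.75 and 9.10 in air, with a log2 fold change of -0.20 (SE 0.21), or -0.47 (SE 0.12, limma unadjusted p = 0.00168) without replicate 2. Endothelial nitric oxide synthase, *Nos3*, had a log2 fold change of -0.08 (SE 0.11).

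The endothelial list was close to air, with a median of -0.07 over 13 genes. *Eng*, endoglin, a coreceptor for TGF-beta and BMP ligands, was the 1 gene at an unadjusted p under 0.05, and it was lower (3.82% of all genes were). It was at 8.91, 8.78, 9.07 and 8.96 in GMA-SS aortas, against 9.16, 9.06, 9.21 and 9.005 in air (log2 fold change -0.18, SE 0.06). Of 12 adhesion genes *Vcam1*, which captures leukocytes, was higher by 0.31 (SE 0.12), with 8.43 on replicate 2, and by 0.18 (limma unadjusted p = 0.102) without it. *Tgfbr2*, the type II TGF-beta receptor, was at 11.04, 10.93, 11.16 and 11.12 in GMA-SS aortas, against 10.94, 10.92, 10.88 and 10.91 in air. It was higher by 0.15 (SE 0.05), and by 0.20 (SE 0.04, adjusted p = 0.079) without replicate 2, where all 3 GMA-SS arrays lay above air (3.88% of all genes did). *Tgfbr1*, *Bmpr1a* and *Tgfb3* were higher too at an unadjusted p under 0.05, so that 4 of 21 TGF-beta and BMP genes were higher (3.01% of all genes were) and 1, *Eng*, lower (3.82%), around a median of -0.04. Without replicate 2, 2 were higher, *Tgfbr2* and *Bmpr1a* (4.90% of all genes were), and *Eng* lower (4.63%).

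In the extracellular matrix the lists as a whole lay near 0, with medians of 0.04 for 20 elastic fiber genes, -0.01 for 18 collagen genes and 0.08 for 17 matrix proteases and inhibitors. *Mmp19*, a matrix metalloproteinase, was dim, near background, at 5.17, 4.97, 4.60 and 4.81 in GMA-SS aortas, against 5.18, 5.57, 5.26 and 5.38 in air. Its groups did not overlap (1.24% of all genes lay below air in this way). It had a log2 fold change of -0.46 (SE 0.14) with replicate 2 and -0.49 without it. The plasminogen activator gene *Plau* had a log2 fold change of -0.38 (SE 0.15) and *Timp3*, a tissue inhibitor of metalloproteinases, one of 0.23 (SE 0.09). Neither kept an unadjusted p under 0.05 without replicate 2. *Plod2*, which hydroxylates collagen lysines, was the 1 collagen gene of 18 that was higher at an unadjusted p under 0.05 (3.01% of all genes were). Its log2 fold change was 0.31 (SE 0.14), and it had an unadjusted p of 0.0749 in limma without replicate 2.

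Fewer genes of fat and of mitochondria were lower at an unadjusted p under 0.05 once GMA-SS replicate 2 was left out. Of 16 adipocyte markers 5 were lower at an unadjusted p under 0.05 (3.82% of all genes were), *Car3*, *Adipoq*, *Pck1*, *Lpl* and *Cidec*. *Car3*, a carbonic anhydrase abundant in fat, was at 12.48, 12.61, 12.28 and 12.46 in GMA-SS aortas, against 12.99, 12.61, 12.82 and 12.74 in air (log2 fold change -0.33, SE 0.09, limma unadjusted p = 0.00204, and -0.38 without replicate 2). Without replicate 2, 2 markers, *Car3* and *Adipoq*, were lower (4.63% of all genes were) and 2, *Thrsp* and *Dgat2*, higher (4.90%), around a median of -0.02. *Adipoq*, adiponectin, had a log2 fold change of -0.18 (SE 0.07), or -0.16 without replicate 2. Of 47 genes of the respiratory chain and ATP synthase 8 were lower at an unadjusted p under 0.05 with replicate 2 (3.82% of all genes were). That array lay below all air arrays for 34 of the 47 (41.3% of all genes did on this array). Without replicate 2, 1 was lower (4.63% of all genes were), *Cox6a2*, which is described with the heart muscle genes. Brown adipocyte markers summed to 96490, 84590, 95640 and 93740 in GMA-SS aortas, against 94900, 96170, 95020 and 91130 in air, and without replicate 2 the median of their 12 genes was 0.09.

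Antioxidant genes that NRF2 controls differed little. *Ephx1*, microsomal epoxide hydrolase, was higher by 0.23 (SE 0.08) with replicate 2. Without it 5 of 19 were higher at an unadjusted p under 0.05 (4.90% of all genes were), *Me1*, *Gclm*, *G6pdx*, *Srxn1* and *Ephx1*, by 0.15 to 0.21. *Me1*, malic enzyme, was at 12.44, 11.91, 12.60 and 12.41 in GMA-SS aortas, against 12.25, 12.39, 12.34 and 12.12 in air. Among 15 metal handling genes 0 had an unadjusted p under 0.05 at 28 d with replicate 2 (6.82% of all genes did). *Mt2*, a metallothionein, was at 5.15, 5.42, 5.60 and 6.13 in GMA-SS aortas, against 5.86, 5.90, 5.84 and 5.75 in air, a log2 fold change of -0.26 (SE 0.18), and the effect at 28 d minus that at 4 hr was -0.73 (limma unadjusted p = 0.0178).

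Among genes with an unadjusted p under 0.05 the highest by fold change was *Thsd4*, which codes for a microfibril-associated matrix protein, and its value rested on 2 air arrays. It was at 9.07, 9.003, 8.32 and 8.39 in GMA-SS aortas, against 8.53, 5.98, 8.31 and 5.77 in air, and between 8.90 and 9.31 in all 7 aortas at 4 hr. The log2 fold change was 1.55 (SE 0.50, limma unadjusted p = 0.00754), and 1.16 without air replicate 2 or 1.09 without air replicate 4. There were 15 genes that were lower by at least 0.5 in air replicates 2 and 4 than in the other 6 arrays, while any other pair of the 8 arrays had at most 5. After *Thsd4* the widest gaps were those of *Zbtb7a*, *Megf9* and *Gatad2b*. *Megf9* was at 8.76, 8.55, 8.96 and 8.55 in GMA-SS aortas, against 8.71, 7.11, 8.98 and 6.96 in air, so that air replicates 1 and 3 matched GMA-SS.

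A few genes near background were measured in 1 group only. *Slc25a29*, a mitochondrial carrier of basic amino acids, was at 5.61, 5.31, 5.65 and 5.49 in GMA-SS aortas, against 5.02, 5.15, 5.02 and 5.11 in air. It was above background on 4 GMA-SS and 0 air arrays and at least 1.36-fold higher (limma adjusted p = 0.454). *LOC100048710* was above background on 0 GMA-SS and 4 air arrays and at least 1.54-fold lower. *Foxa1*, a transcription factor of airway and gut epithelium, was at 4.70, 8.43, 5.14 and 5.32 in GMA-SS aortas, against 4.58 to 4.81 in air, and its log2 fold change of 1.20 became 0.36 without replicate 2. Such bounds compare the mean of the measured group with, on each array of the other, the lowest signal above background or the gene's own signal, whichever was higher, so that for *Slc25a29* the bound is the fold between the group means.

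Among all 8 arrays the lowest unadjusted p after *BC034076* belonged to genes with small, even differences. *Slc25a3*, the mitochondrial phosphate carrier, was at 10.73, 10.73, 10.70 and 10.72 in GMA-SS aortas, against 10.86, 10.94, 10.94 and 10.94 in air, without overlap (log2 fold change -0.20, SE 0.04, limma unadjusted p = 0.000144, adjusted p = 0.454). *Sar1a*, a GTPase of vesicle export from the endoplasmic reticulum, was at 9.95, 10.07, 9.91 and 9.86, against 9.82, 9.63, 9.58 and 9.63 (log2 fold change 0.28, SE 0.06). These 2 genes, chosen after their values were seen, did not overlap between the groups, with replicate 2 included.

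The effect at 28 d was then set against the effect at 4 hr in the same fit. No gene passed an adjusted p under 0.05 for this difference (lowest 0.999, and 0.387 without GMA-SS replicate 2), and 170 genes (1.73%) had a higher and 215 (2.18%) a lower effect at 28 d at an unadjusted p under 0.05, together 3.91%. *Gsc*, a homeobox gene, was at 5.22, 5.02, 5.36 and 5.47 in GMA-SS aortas at 28 d, against 5.90, 5.82, 5.54 and 5.81 in air, without overlap. Its log2 fold change was 0.30 at 4 hr and -0.50 (SE 0.11) at 28 d, a difference of -0.80 (limma unadjusted p = 0.000195, adjusted p = 0.999). *Ffar2*, a receptor for short-chain fatty acids, was at 7.05, 7.61, 6.74 and 7.04 at 28 d, against 7.98, 7.45, 7.72 and 7.78 in air, with a log2 fold change of 0.08 at 4 hr and -0.62 (SE 0.18) at 28 d. *S100a9*, a calprotectin gene of neutrophils, had the largest difference upward among genes with an unadjusted p under 0.05 for it, 1.43, but at 28 d it was at 5.10, 6.14, 6.80 and 7.08 in GMA-SS aortas, against 6.43, 5.36, 5.68 and 5.68 in air, which overlap.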

How the data were processed

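Signals came from whole aortas hybridized to Illumina MouseRef-8 v2.0 beadchips, 1 array per mouse. The authors deposited, per the file headers, non-normalized intensity values with a detection p-value and a bead standard error for each entry, exported from BeadStudio. The authors also deposited a table of log2 values made with lumi, used here only as an alternative. Lung was not used here.

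From the deposited intensity values, background was corrected (limma 3.58.1, R 4.3.3, normexp, with negative controls inferred from the detection p-values, which step by 1 in 798), 16 was added, log2 was taken and the 15 aorta arrays were quantile normalized. Entries above background (detection p under 0.05) on at least 3 arrays were kept, with the brightest entry per gene, which left 9850 genes of 18138 entries. This filter dropped 79 entries that were bright on average, *B2m*, *Clock*, *Gvin1*, *Ltf*, *Reg3g* and *Sftpd* of the lists among them. *B2m* was bright on every 28 d array but had a poor detection p on each. *Ltf*, *Reg3g* and *Sftpd* were above background on GMA-SS replicate 2 alone among the 28 d arrays. Of the entries, 16590 were named through Entrez IDs, 883 through accessions and 665 as in the file. limma was fitted with 1 mean per group over all 15 aorta arrays and a mean-variance trend, with Benjamini-Hochberg adjustment over all genes. The code was tested on simulated data. The small number of arrays limits the precision of a group mean.

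The members and lists were chosen with earlier results of these data known. Genes are named if they were among the 10 highest or lowest by fold change at an unadjusted p under 0.05 (with the adjusted p where any gene passed it, as without replicate 2), among the 5 lowest p of a list, among the 6 genes that the study measured by PCR, or among the 5 highest or lowest by the difference between 28 d and 4 hr effects. The other genes named were chosen after their values were seen. The alternatives tried were no background correction, 75th percentile scaling, other offsets and detection filters, the 28 d arrays alone, the authors' values, every entry, array weights, a replicate block and leaving out each array. Promoter sequences are from RefSeq.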

Additional observations from a re-analysis of the deposited data

Results flagged for a closer look

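In groups of 4 samples, a highest or lowest sample was picked out when its gap to the nearest other, as a share of the whole range of the group, exceeded Dixon's critical value at 95%. Of 162 groups looked at (88 sums over lists and 74 genes), 22 were picked out, and chance picks out about 1 in 20 independent groups. These groups were not independent, since some of the genes also belong to the lists and many were picked by their fold change in these data. The counts are a description and not a test.

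GMA-SS replicate 2 accounted for 16 of the 22. Its summed signals were 108000 for airway secretory and gland cells, 8542 for ciliated cells, 7952 for alveolar epithelium, 4245 for epithelium and 2606 for cartilage. It was also picked out for cardiac muscle (72790, with 14500 to 23090 in the other GMA-SS aortas), macrophages (25960), neutrophils (8214), Schwann cells and neurons (2373) and endothelial adhesion genes (2978). The neutrophil sum includes *Ltf*, lactoferrin, which gland epithelium also makes. Single genes were *Foxa1* at 8.43, *Mia* at 7.55, *Aldh1b1* at 6.53, *Nppa* at 13.60, *Myh6* at 11.35 and *Cacna1h* at 7.67 on the log2 scale.

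GMA-SS replicate 4 was picked out for 2 interferon genes, *Lgals3bp* at 10.02, with 11.01 to 11.16 in the other GMA-SS aortas, and *Irf7* at 4.72, with 5.85 to 5.98 in the others.

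In air aortas, replicate 1 was picked out for alveolar epithelium (267.3), B cells (399.5, with 109.3 to 149.4 in the other air aortas) and antigen presentation by MHC class II (5798, with 3581 to 3801 in the others). Air replicate 2 was picked out for thymocytes and T cells (387.8, with 564 to 598.2 in the others).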

How the results depend on the processing

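With all arrays, 0 genes passed the adjusted p under every alternative tried (limma) except that 2 passed without GMA-SS replicate 2, a range of 0 to 2 when 1 array was left out, and 672 genes had an unadjusted p under 0.05. The 614 genes past an unadjusted p and a fold of at least 1.1 became 307 with the 28 d arrays alone and 187 with the authors' values, and ranged over 511 to 851 when 1 array was left out. Without GMA-SS replicate 2, the 2 genes past the adjusted p became 0 with no background correction, 75th percentile scaling, no detection filter, the 28 d arrays alone, array weights or the replicate block, and ranged over 0 to 60 when 1 more array was left out, 60 being without air replicate 2. The same 2 genes passed with offset 1 or 50, a detection p under 0.01, the authors' values, every entry, or bright entries kept whatever their detection p, an alternative chosen after seeing the data. The 851 genes past the unadjusted p and fold became 291 with the authors' values and ranged over 777 to 1075 when 1 more array was left out. The cause of these shifts was not tested. Of the 614 genes 42.7% were higher, and of the 666 genes called with 75th percentile scaling 52.6% were. The share was 50.8% with the authors' values, 48.9% with array weights and 47.7% with the replicate block. It lay between 40.4% and 44.8% with the other settings that kept all arrays. With the replicate block, the counts were 0 and 608 with all arrays and 0 and 895 without replicate 2. Same-numbered GMA-SS and air mice were different animals and their deviations correlated between -0.328 and 0.0945, so the numbers do not pair them. Signs were compared only for the genes picked by the naming rules given above. None of these with an unadjusted p under 0.05 changed the sign of its fold change under an alternative. Genes without one did, such as *Scgb1a1* (0.70 with all arrays and -1.19 without GMA-SS replicate 2). Dim genes such as *Irf7* are limited by background.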

Other observations

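T cell genes had group means slightly above air, but not in each GMA-SS aorta. All 10 tested markers of thymocytes and T cells had a mean above air (43.7% of all genes did), with a median log2 fold change of 0.35 (-0.02 over all genes). Without GMA-SS replicate 2, 9 of 10 did (53.4% of all genes). The summed signal of the list was 471.7, 1116, 699.1 and 483.7 in GMA-SS aortas, against 598.2, 387.8, 587.5 and 564 in air. GMA-SS replicates 1 and 4 were thus below all air aortas but replicate 2. *Cd3e*, a chain of the T cell receptor complex, was at 5.73, 6.34, 6.00 and 5.60 in GMA-SS aortas, against 5.85, 5.39, 5.72 and 5.32 in air. Its log2 fold change was 0.35 (SE 0.16, limma unadjusted p = 0.0481), and 0.21 without GMA-SS replicate 2. Without that array the median of the list was 0.16 and 0 of 10 genes had an unadjusted p under 0.05 (9.53% of all genes did). *Lck*, a kinase of that receptor, was at 5.18, 6.67, 5.85 and 5.23 in GMA-SS aortas, against 5.42, 4.89, 5.32 and 5.22 in air. The 3 B cell markers tested had a median of 0.05, or -0.13 without air replicate 2.

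Skeletal muscle markers, like those of heart muscle, had a lower sum in GMA-SS replicates 1, 3 and 4 than in any air aorta. Unlike for heart muscle, the highest sum was that of air replicate 3, above GMA-SS replicate 2. Their summed signal was 3375, 5632, 3344 and 4072 in GMA-SS aortas, against 4870, 4607, 6747 and 5547 in air. On air replicate 3, 11 of the 15 markers were above background, against 4 to 7 on the other arrays. The 12 genes tested had a median of -0.26, which turned to 0.16 without air replicate 3. *Myl1*, a fast skeletal light chain that is also expressed in the atrium, was at 11.61, 12.26, 11.57 and 11.84 in GMA-SS aortas, against 12.11, 12.08, 12.19 and 12.29 in air, with a log2 fold change of -0.50 (limma unadjusted p = 0.0019) without replicate 2. *Ckm*, muscle creatine kinase, had a log2 fold change of -1.20 (unadjusted p = 0.0124) without it.

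Genes that sense nucleic acids gave few differences. *Ddx58*, the RNA helicase RIG-I, was at 5.98, 5.63, 6.14 and 5.59 in GMA-SS aortas, against 5.89, 6.06, 5.33 and 5.75 in air. *Tlr7*, an endosomal RNA receptor, had a log2 fold change of 0.02 (SE 0.15). *Tlr6* was dim, near background, at 4.87, 5.04, 4.80 and 4.92 in GMA-SS aortas, against 5.31, 4.98, 5.11 and 5.08 in air. Of 16 genes it was the 1 with an unadjusted p under 0.05 in all arrays, and it was lower (3.82% of all genes were). *C3*, the central complement component, had a log2 fold change of -0.19 (SE 0.09), and *Klf6*, an immediate early transcription factor gene, one of 0.54 (SE 0.20), or 0.40 (unadjusted p = 0.0611) without replicate 2.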
